A study of Arabidopsis thaliana with 5 samples.

Results

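The lists of structural variants of 5 long-read genomic libraries of Arabidopsis thaliana, ecotype Col-0, held 108 inverted duplications with both ends on the same nuclear chromosome, out of 634 calls of all kinds. These members were chosen by the type that the variant caller gave them and by the chromosomes of their best positions. Of the 108 calls, 97 came from a library that pooled 6 plants, and 11 came from 4 libraries made from a plant each. All 10 plants came from exposed seed lots and were picked as mutants, and no library of unirradiated plants was analysed here. The Antarctic seeds flew for 30 days at about 35 km altitude. The other seeds, irradiated on the ground to simulate cosmic radiation, were given 10.62 rad of hydrogen ions, 3.165 rad of helium, 1.08 rad of oxygen and 0.735 rad of titanium.

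The groups were Antarctic single plants (mutants 1 and 2), simulated-radiation single plants (mutants 4 and 5) and the Antarctic pool. The Antarctic plants were of the M0 generation and were extracted as frozen whole plants, at 44 and 45 days of age for the single plants. The simulated-radiation plants were of the M1 generation, had been moved to soil after 14 days, and gave a single fresh leaf each at 45 days. The pool held whole frozen plants of 21 days, with 1 of them 17 days old. Exposure, generation and tissue differ together between the Antarctic and the simulated-radiation plants and cannot be told apart. The pool shares them with the Antarctic single plants, but differs from these in age and pooling, which cannot be told apart either. The pool is 1 library, so it has no replicate.

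An inverted duplication is a stretch of DNA that is present in an additional copy, joined to the first in the opposite direction. In a long read it shows as a fold-back: the read aligns to one strand, turns, and aligns to the other strand at nearly the same place. In Arabidopsis, inverted duplications of whole genes are known as a source of hairpin RNAs, for example at the PAI genes of the accession Wassilewskija, and young microRNA genes can arise from inverted duplications of their later targets. A caller infers the event from the turn in the split reads alone. No call was checked by another method here, and whether a call is present in the genome of a plant was not tested.

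The pool held far more of these calls than any single plant. Counted per library, its other calls within 1 nuclear chromosome stayed within the single plants' range. There were 3 inverted duplications in Antarctic mutant 1, 2 in Antarctic mutant 2, 4 in simulated-radiation mutant 4, 2 in simulated-radiation mutant 5 and 97 in the pool. The 4 single plants averaged 2.75 ± 0.957 calls (SD, n = 4). Divided by its 6 plants, the pool had 16.2 calls per plant, but the lists do not say which plants held a call. The other calls within 1 nuclear chromosome, which are deletions, duplications, insertions and inversions, numbered 21 in the pool and 25, 8, 37 and 33 in mutants 1, 2, 4 and 5. Counted per library, the pool thus lay inside the range of the single plants for these other calls and outside it for inverted duplications. Translocations and calls within organelle genomes are not in these counts. Divided by its 6 plants, the pool's count of other calls within 1 nuclear chromosome would fall below that of every single plant. As a share of calls within 1 nuclear chromosome, inverted duplications were 82.2% in the pool (95% interval 74.1% to 88.6%, exact Clopper-Pearson, as for all shares below). The shares were 10.7% in mutant 1 (2.27% to 28.2%), 20.0% in mutant 2 (2.52% to 55.6%), 9.76% in mutant 4 (2.72% to 23.1%) and 5.71% in mutant 5 (0.700% to 19.2%). The type chose the members, and the pool was known to hold most of them, so these counts are given without a test. The lists hold no sequencing depth. The best supported translocation, with organelle genomes included, had 60 reads in the pool and 59 to 77 reads in the single plants. That is 1 extreme call per library and does not give the depth over the nuclear chromosomes.

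All 108 members were also in the authors' filtered lists, so the filter removed none of them. By contrast, none of the 18 inverted duplications within an organelle genome passed it. Intervals here cover counting error only.

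Nearly all of the pool's calls were very short by predicted length, which is the distance between the best positions of their ends. The length of the DNA present in an additional copy was not measured. Their predicted length ran from 31 to 4047 bp with a median of 42 bp, and the middle 50% lay between 35 and 52 bp. Lengths of 31 to 40 bp were found in 45 of the 97 calls, 41 to 50 bp in 26, and 51 to 100 bp in 20. Only 5 calls were 101 to 1000 bp long and 1 was longer. Calls of at most 100 bp were 93.8% of the pool's calls (87.0% to 97.7%). The most frequent lengths are also the shortest that the lists hold, since no call of any type within a nuclear chromosome was shorter than 31 bp. Shorter distances are outside what these lists can show.

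The single plants had a wider mix of lengths. The median was 258 bp in mutant 1, 86 bp in mutant 2, 105 bp in mutant 4 and 57 bp in mutant 5, each over 2 to 4 calls. Of the 11 calls, 6 were at most 100 bp long. The pool's median of 42 bp was below all 4, and its difference from their mean of 126.5 ± 89.9 bp (SD, n = 4) was -84.5 bp. That difference is smaller than the spread between single plants, and an exact two-sided permutation of the libraries gave p = 0.4 (adjusted p = 0.533, Benjamini-Hochberg over 4 tests), where the smallest p that 1 against 4 libraries allows is 0.2. Without mutant 1 the difference was -40.7 bp.

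**Figure D1:**
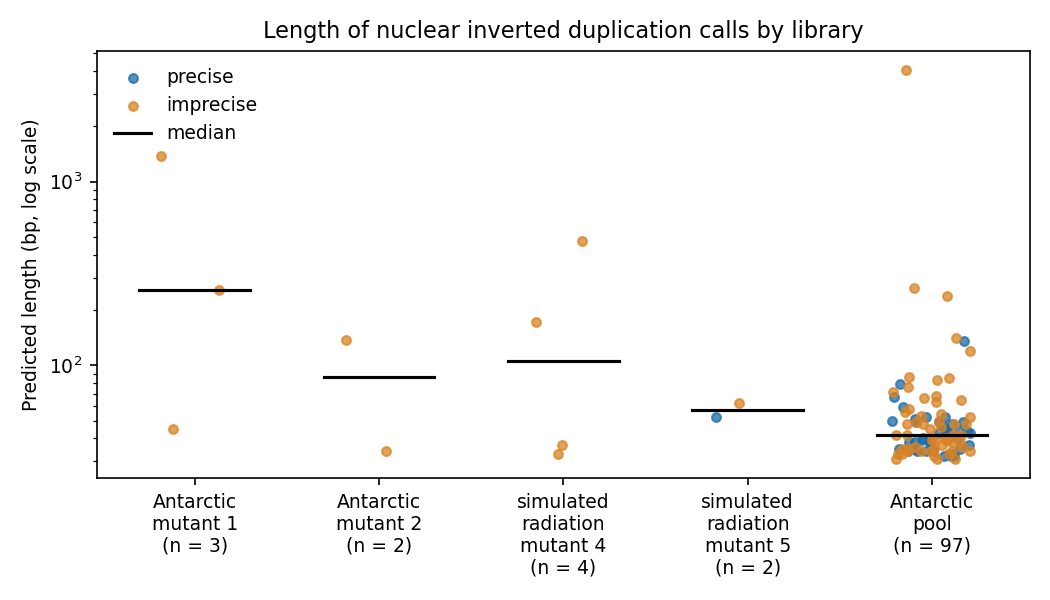
Predicted length in bp, on a log scale, of each nuclear inverted duplication in the 5 libraries, with 1 point per call coloured by the caller's label of precise or imprecise positions, and a bar at the median. The pool's 97 points crowd just above 31 bp with a median of 42 bp, while the medians of the single plants lie between 57 and 258 bp.

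Other types in the same libraries had longer medians. In the pool, the 7 insertions had a median length of 79 bp, the 4 duplications 3911 bp, the 3 deletions 1411284 bp and the 7 inversions 12156186 bp. In the single plants the medians were 134.5 bp for insertions, 107.5 bp for deletions, 634 bp for duplications and 8399 bp for inversions, against 62 bp over the 11 inverted duplications. Up to 100 bp were 13 of 34 deletions, 12 of 31 insertions and 6 of 11 inverted duplications there. The shortest inversion had 3354 bp in the pool and 1340 bp in the single plants. Whether length is part of how the caller parts inversions from inverted duplications is not stated. The length contrast with inversions is therefore not read as a finding. Only inversions shared the strand pattern of the members. A pair of like signs, ++ or --, marks a join at which the read changes strand, and it was given to all 108 inverted duplications and all 25 inversions. All 37 deletions and 38 insertions had +- and all 24 duplications had -+. The like signs are part of what defines the type and are no finding about it.

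Which of the like patterns occurred did vary. In the pool 59 calls had -- and 38 had ++, so -- made up 60.8% (50.4% to 70.6%). Mutants 1 and 5 had only -- calls, 3 and 2 of them. Mutant 2 had only ++, with 2 calls, and mutant 4 had 3 calls with -- and 1 with ++. Both patterns had nearly the same length in the pool, with medians of 42 bp for -- and 41 bp for ++, and the same median of 6 reads. The caller labelled the positions as precise in 50.0% of the ++ calls and 37.3% of the -- calls. On chromosome 4 of the pool, 15 calls had -- and 5 had ++, whereas on chromosome 1 there were 9 and 11. These are counts within 1 library, and the difference between the patterns was not tested.

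Read support was low. Each call is listed with the number of split reads behind it, as the authors deposited it. In the pool 34 calls had 5 reads, 29 had 6, 13 had 7, 10 had 8, 6 had 9 and 5 had 10. Calls with 5 or 6 reads made up 64.9% of the pool's inverted duplications (54.6% to 74.4%) and 57.1% of its 21 other calls (34.0% to 78.2%). No call within a chromosome had more than 10 reads in any of the 5 libraries, chloroplast and mitochondrion included, and whether the lists cap the count there is not stated, so read counts are not taken as a frequency. Length hardly moved with support: the median was 40.5 bp among calls with 5 reads and 34 bp among calls with 10.

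Between inverted duplications and other calls of the same library, read support differed in no common direction. Their median reads were 7 and 6 in mutant 1, 6 and 6.5 in mutant 2, 5 and 7 in mutant 4, 6.5 and 6 in mutant 5, and 6 and 6 in the pool, with the inverted duplications given first. The mean difference over libraries was -0.2 ± 1.15 reads (SD, n = 5), with inverted duplications higher in 2 libraries, lower in 2 and equal in 1. An exact two-sided sign-flip permutation gave p = 0.875 (adjusted p = 0.875), where 5 pairs cannot go below 0.0625. Without mutant 4 the difference turned to 0.25.

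**Figure D2:**
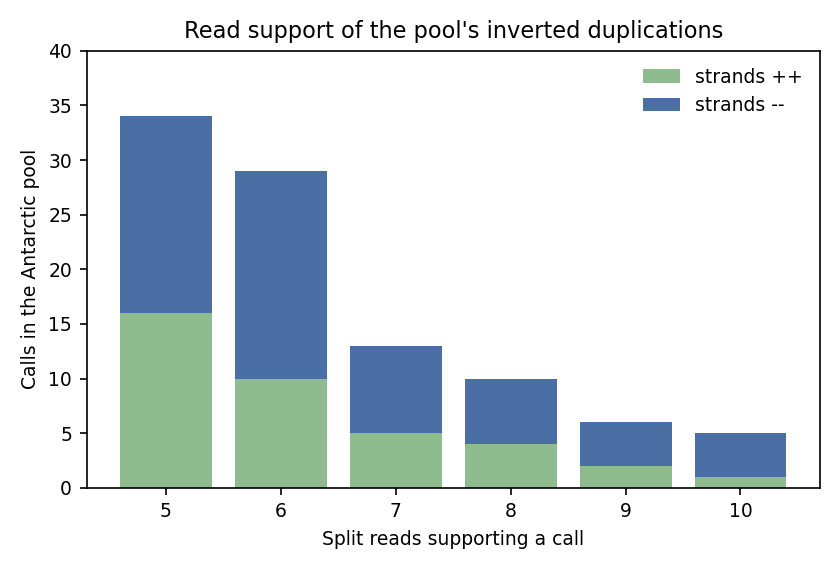
Number of inverted duplications of the Antarctic pool by the number of split reads that support them, with bars stacked by strand pattern. Bars fall from 34 calls with 5 reads to 5 calls with 10 reads, and both strand patterns occur at every read count.

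The lists give each call 2 sets of positions, a first pair and a best pair, and these were compared. The first position is the start of the range listed for an end. The stop of that range was not used, so how sharply an end was placed was not measured. The predicted length equals the distance between the best positions in all 108 calls, so length and best distance are a single measurement. The first positions are separate. In the pool 80 of 97 calls had first positions at most 100 bp apart, or 82.5% (73.4% to 89.4%), with a median distance of 41 bp. Both sets agreed within 10 bp at both ends in 63 of the 97 calls, and were over 1000 bp apart at an end in 8. In the single plants only 1 of 11 calls agreed within 10 bp, and 3 were over 1000 bp apart. The median of the larger shift was 5 bp in the pool and 241 bp in the single plants. The median first distance was 66, 406, 133.5 and 1143.5 bp in mutants 1, 2, 4 and 5. The pool's difference from the mean of these was -396.2 bp (exact two-sided permutation p = 0.4, where 0.2 is the smallest possible).

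A small set of calls had distant first positions although their predicted length was short. In the pool 8 calls had first positions over 1000 bp apart, 6 of them with a predicted length of at most 100 bp. An example, chosen after its values were seen, is a call of 33 bp with 6 reads on chromosome 4 in FEY (AT4G27760), from 13844180 to 13844213 by the best positions. Its first positions, 13844233 and 13848817, lie 4584 bp apart. It is labelled precise all the same. Precise labels were given to 41 of the pool's 97 calls, or 42.3% (32.3% to 52.7%), and to 1 of 11 calls in the single plants. Precise and imprecise calls of the pool had medians of 41 and 42 bp, but the longest precise call was 136 bp and the longest imprecise call 4047 bp.

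**Figure D3:**
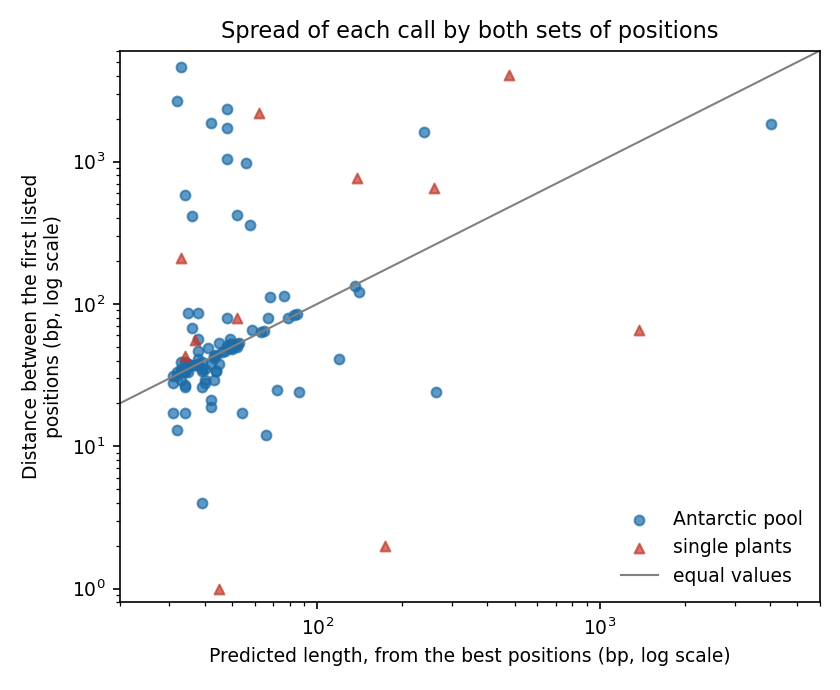
Distance between the first listed positions (vertical, bp, log scale) against predicted length from the best positions (horizontal, bp, log scale), with 1 point per call for the pool and for the single plants, and a line of equal values. Most calls of the pool lie close to the line, with 63 of 97 agreeing within 10 bp at both ends, while the calls of the single plants scatter away from it.

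Some calls of the pool described the same place more than once. There were 6 pairs of calls whose ends differed by at most 10 bp, and in all 6 both calls had the same strand pattern. A pair in ERG28 (AT1G10030), whose yeast counterpart is a scaffold of sterol synthesis, lay at 3275450 to 3275502 with 7 reads and at 3275452 to 3275501 with 6 reads on chromosome 1. A pair in AT4G22900 on chromosome 4 had 9 and 6 reads. The other pairs lay at 24608579 on chromosome 1, at 2825712 and 13334606 on chromosome 2, and at 12246326 on chromosome 5, the last in the pseudogene AT5G32598. Counting each pair once left 91 loci in the pool, or 15.2 per plant, and 102 in all. No single plant had such a pair.

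No call recurred between libraries. No pair of calls from different libraries had starts within 500 bp of each other, and just 1 pair had them within 10000 bp. That pair joins both exposures: Antarctic mutant 1 had a call at 2983946 on chromosome 3 in AT3G09730, and simulated-radiation mutant 4 had a call 4228 bp away, at 2988174. The gene AT3G09735 lies between them. No member lay within 10000 bp of a breakpoint of another type of call within 1 nuclear chromosome. The smallest such distance, over all libraries, was 32.3 kb. Translocations, which join different chromosomes or genomes, were not searched for this.

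The pool's loci lay on all 5 chromosomes in almost equal numbers, 18, 18, 20, 19 and 16 on chromosomes 1 to 5. Chromosome 1 is the longest and chromosome 4 the shortest, so the density per length differed more. It was 0.592 loci per Mb on chromosome 1 (exact Poisson 95% interval 0.351 to 0.935), 0.914 on chromosome 2 (0.542 to 1.44), 0.853 on chromosome 3 (0.521 to 1.32), 1.02 on chromosome 4 (0.616 to 1.60) and 0.593 on chromosome 5 (0.339 to 0.963), with length taken to the last annotated gene. All 5 intervals overlap one another. The 11 calls of the single plants lay 3, 1, 4, 2 and 1 on these chromosomes.

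**Figure D4:**
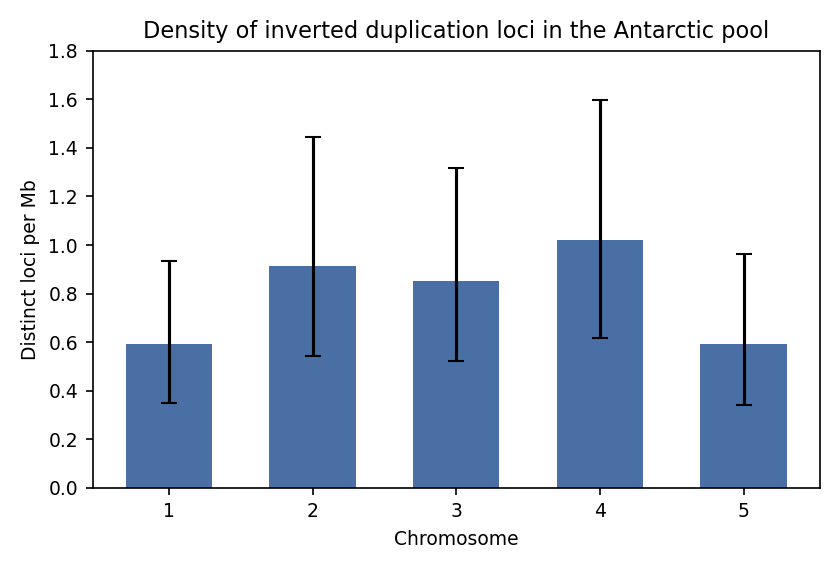
Distinct inverted duplication loci per Mb of each chromosome in the Antarctic pool, with exact Poisson 95% intervals that cover counting error only. Values run from 0.592 on chromosome 1 to 1.02 on chromosome 4, and the intervals overlap.

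Neighbouring loci were mostly far apart. The median spacing of 86 neighbouring pairs was 1021 kb, and 6 pairs were within 100 kb. The closest pair lay 6.60 kb apart in neighbouring genes of chromosome 3. A call of 47 bp with 6 reads was in NOXY38 (AT3G52140), which acts in the distribution of mitochondria, and a call of 35 bp with 5 reads was in PSRP2 (AT3G52150), a plastid ribosomal protein. Their strand patterns differed, ++ in the first and -- in the second, and both calls were labelled precise. The widest stretches without a call between loci were 5.57 Mb on chromosome 1 (from 11741501 to 17313692), 3.11 Mb on chromosome 2, 3.55 Mb on chromosome 3 (from 13566912 to 17118157), 3.75 Mb on chromosome 4 (from 1448479 to 5195168) and 2.82 Mb on chromosome 5. On chromosome 5 the first call stood at 6692219, whereas the first calls of chromosomes 1 to 4 stood at 599003, 118276, 665354 and 613984.

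Protein-coding genes were touched by 53 of the pool's 97 calls, and annotated genes of any kind by 61. Both ends were in a protein-coding gene in 51 calls and 1 end in 2. Another 7 lay in a pseudogene and 1 in a gene of a long non-coding RNA, and 36 lay in no annotated gene. Of the pool's 194 breakpoints, 104 were in protein-coding genes, or 53.6% (46.3% to 60.8%). Gene bodies, introns and untranslated regions included, covered 54.1% of the chromosomes' length. Both ends of a call share a place, so the interval is narrower than 97 independent calls would give. Breakpoints of -- calls were in genes at 60.2% and those of ++ calls at 43.4%. In all, 51 genes held a breakpoint. Their lengths ran from 404 to 16023 bp with a median of 2854 bp, against 2078 bp over all 27444 nuclear protein-coding genes of the table. Long genes offer more sequence to a breakpoint: genes shorter than 2912 bp make up 50% of the summed gene length. No gene held calls from 2 distinct loci.

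In the single plants 10 of 22 breakpoints were in protein-coding genes, or 45.5% (24.4% to 67.8%). By library this was 3 of 6 in mutant 1, 4 of 4 in mutant 2, 2 of 8 in mutant 4 and 1 of 4 in mutant 5. The other calls within a chromosome stood at 24.4%, 38.5%, 27.1% and 29.3% in these plants and at 45.7% in the pool. Inverted duplications were higher in 3 of 5 libraries, by a mean of 17.7 ± 27.2 percentage points (SD, n = 5). The exact two-sided sign-flip permutation gave p = 0.25 (adjusted p = 0.533), where 0.0625 is the smallest possible. Mutant 2, with 2 calls, weighs heavily in this, and without it the mean difference was 6.76 points. It was 32.6 points against other calls of at most 1 kb (exact permutation p = 0.0625) and 6.68 points when every annotated gene was counted (exact permutation p = 0.688).

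**Figure D5:**
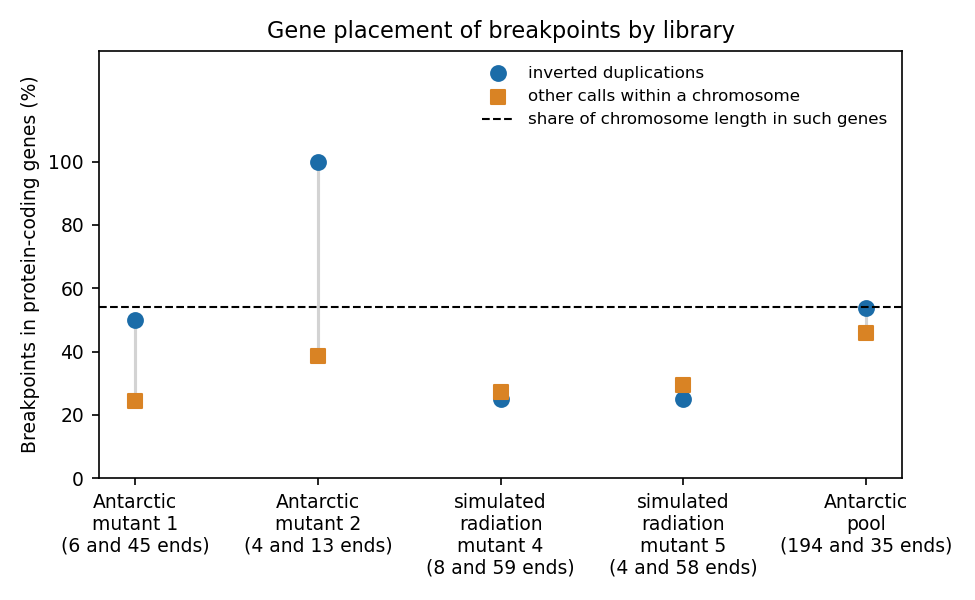
Percentage of breakpoints in protein-coding genes for inverted duplications (circles) and for other calls within a nuclear chromosome (squares) in each library, with the number of breakpoints of both under each name. The dashed line at 54.1% is the share of chromosome length in such genes, and the pool's 194 breakpoints stand at 53.6%.

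The best supported calls of the pool lay both inside and outside protein-coding genes. Of the 11 calls with at least 9 reads, 5 had an end in such a gene, and of the 21 with at least 8 reads, 13 had. The 5 with 10 reads included a call of 42 bp in AT1G74150, from 27883058 to 27883100 on chromosome 1. The other calls with 10 reads were outside protein-coding genes. A call of 31 bp at 5348576 on chromosome 1 lay between GA3OX1 (AT1G15550), a gibberellin synthesis enzyme, and CYCA2;3 (AT1G15570), an A-type cyclin. A call of 34 bp at 16372182 on chromosome 2 lay between AT2G39210 and PLP6 (AT2G39220). The call of 41 bp at 654100 on chromosome 4 lay next to NAC067 (AT4G01520), of the NAC family of transcription factors, and was the only precise one of the 5. The last, of 33 bp at 10972542 on chromosome 5, lay between AT5G28920 and AT5G28950.

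Calls with 9 reads lay in AT1G16690 with 66 bp, in IDH-IV (AT1G32480), named for isocitrate dehydrogenase, with 42 bp, in AT4G22900 with 40 bp, and in PUM14 (AT5G43110), of the Pumilio family of RNA-binding proteins, with 48 bp. The first positions of the PUM14 call were 2341 bp apart and reached the next gene, AT5G43120. A call of 44 bp at 12146627 on chromosome 3 lay in no annotated gene, and the call of 35 bp at 12246336 on chromosome 5 was in the pseudogene named above. The naming rule took 12 calls and broke the tie among the 10 calls with 8 reads by position, which added a call of 38 bp in AT1G54840. Precise positions were given to 4 of the 11 calls with at least 9 reads and to 10 of the 21 with at least 8.

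The longest calls of the pool were few. The longest, of 4047 bp with 6 reads, ran from 17313692 to 17317739 on chromosome 1, between AT1G47240 and AT1G47250. The next had 264 bp and 6 reads with its left end in LSMT-L (AT1G14030), a chloroplast protein methyltransferase. A call of 238 bp with 6 reads stood at 10020444 on chromosome 4 in no annotated gene. All 3 were labelled imprecise.

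Further genes are named here for their known roles, chosen after the calls had been seen, and no class of genes was tested. Among genes of photosynthesis and plastid metabolism, PSBTN (AT3G21055), a subunit of photosystem II, held a precise call of 45 bp with 8 reads. MOD1 (AT2G05990), the enoyl reductase of plastid fatty acid synthesis, held a call of 65 bp with 6 reads. Genes of membrane traffic included SKD1 (AT2G27600), an ATPase that recycles the ESCRT machinery, with a precise call of 34 bp and 8 reads. VPS60.1 (AT3G10640), of the same machinery, had a call of 67 bp with 6 reads, and ERD2 (AT1G29330), the receptor that returns proteins to the endoplasmic reticulum, had a call of 37 bp with 5 reads.

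Among metabolic genes, LUP1 (AT1G78970), a triterpene synthase, held a call of 83 bp with 8 reads. SNG1 (AT2G22990), which makes sinapoylmalate, held a call of 119 bp with 6 reads, and UGT73B5 (AT2G15480), a glucosyltransferase, held a call of 37 bp with 7 reads. The cation exchanger CAX2 (AT3G13320) of the vacuole had 33 bp and 6 reads, and SOS4 (AT5G37850), a pyridoxal kinase, had 39 bp and 5 reads. Among regulators, PKS1 (AT2G02950), a phytochrome kinase substrate, held the left end of a call of 34 bp with 7 reads. MYB12 (AT2G47460), an activator of flavonol synthesis, held a precise call of 38 bp with 6 reads. NAC076 (AT4G36160), a xylem vessel regulator, had 40 bp and 6 reads, IAA32 (AT2G01200), of the auxin-responsive Aux/IAA family, had 48 bp and 5 reads, and GATA1 (AT3G24050) had 42 bp and 5 reads. A call of 42 bp with 5 reads was in DMT2 (AT4G14140), a cytosine methyltransferase gene.

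None of the 63 genes in 4 lists held a breakpoint of an inverted duplication in any library. Over all protein-coding genes, 57 of 27444 did, or 0.208%, so a count of 0 among 63 says nothing about these lists. The lists were 24 genes of DNA damage response and repair, 8 of defence against reactive oxygen, 24 of shoot, root and light development, and 7 of chlorophyll and carotenoid synthesis, and all were found in the gene table.

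The 11 calls of the single plants were each placed. In Antarctic mutant 1, a call of 1380 bp with 7 reads ran from 2820879 to 2822259 on chromosome 1, with its right end in VAP27-2 (AT1G08820), which tethers the endoplasmic reticulum to the plasma membrane. The genes beside it are MYB60, a regulator of stomata, and CSD1, a superoxide dismutase. By its first positions, 66 bp apart, it touched no gene. The call in AT3G09730 had 45 bp and 9 reads, the most of any single-plant call, and a call of 258 bp with 5 reads at 11683458 on chromosome 4 lay next to AT4G22050. In Antarctic mutant 2, both calls were in genes. A call of 34 bp with 5 reads was in CLO4 (AT1G70670), a caleosin, one of the calcium-binding proteins of lipid droplets, and a call of 138 bp with 7 reads was in MAPKKK16 (AT4G26890), of a kinase family.

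In simulated-radiation mutant 4, LON2 (AT5G47040), a protease of the peroxisome, held a call of 478 bp with 5 reads. Its first positions were 4076 bp apart. The other calls of this plant were in no annotated gene. They had 33 bp and 5 reads at 29422015 on chromosome 1, 37 bp and 5 reads at 2437045 on chromosome 2 beside ELF4-L3 (AT2G06255), and 173 bp and 6 reads at 2988174 on chromosome 3 beside SYP71 (AT3G09740), a membrane fusion protein. In simulated-radiation mutant 5, a precise call of 52 bp with 5 reads had its left end in AT3G25290. A call of 62 bp with 8 reads was in no gene by its best positions from 10811480 on chromosome 3, and in AT3G28790 by its first positions. Best and first positions named the same protein-coding genes in 8 of the 11 calls of single plants and in 94 of the 97 calls of the pool.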

How the data were processed

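Genomic DNA was sequenced as 5 barcoded PacBio Sequel libraries with inserts of about 10 kb. Per the series' design text, variants were detected with NGMLR (an aligner) and Sniffles (a caller); their versions, their settings and the rule of the authors' filter were not given. Per the submitters' processing notes, TAIR10 was the build. The authors deposited, for each library, an unfiltered and a filtered list with a count of split reads per call, not normalized. No call in any list had fewer than 5 reads. Depth per library is unknown, so no rate per sequenced base was computed.

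Members were read from the unfiltered lists by type and best positions. Positions are printed as listed, with an unstated base of 0 or 1. Genes came from a RefSeq table of assembly TAIR10.1, whose name differs from TAIR10. Gene placement assumes that nuclear positions are the same in both, and coordinates of that table are not shown. Repeat calls were merged within 500 bp at both ends. An insertion was given 1 breakpoint.

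Libraries, not calls, were the units of each test, by exact permutation, with Benjamini-Hochberg adjustment over 4 tests, 2 of them on identical values. Intervals are exact at 95%. Overlap, merging and tests were checked on simulated calls. The rule for named genes took those with breakpoints of the 12 calls of the pool with most reads (ties by position), of its 3 longest calls, of its closest pair, of repeat calls, of every single-plant call or in a fixed list. FEY and the genes named for their roles are outside it and were chosen after their values were seen. Genes named as lying beside or between calls are outside it too, and for some calls only a single neighbour is named. Members and lists were chosen with earlier results of these data known. Planned sequence windows were not made, since no genome was used here. Python 3.11.15, pandas 2.3.3, numpy 2.4.6 and scipy 1.17.1 were used.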

Additional observations from a re-analysis of the deposited data

Results flagged for a closer look

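The pool's unfiltered list also held 14 inverted duplications in an organelle genome, a kind of call that the comparisons above do not use. They were picked out as data not used above, with a count over the floor of 3 set for counts. That does not show that the pool differs from the single plants, and there is no control library. The single plants had 1, 0, 2 and 1 in mutants 1, 2, 4 and 5, a mean of 1, and the pool had 2.33 per plant over its 6 plants. This difference was not tested. All 14 lay in the chloroplast, with a median length of 44.5 bp, a range of 33 to 429 bp and at most 10 reads, and 12 were at most 100 bp long. The strand pattern was ++ in 10 and -- in 4. No group was large enough for a search for libraries that stand apart.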

How the results depend on the processing

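With at least 7 and 8 reads, the pool's 97 calls became 34 and 21, and the single plants' mean of 2.75 became 1 and 0.5. The share of the pool's calls with ends within 100 bp, 93.8%, was 82.5% by the first positions and 73.2% for ends within 50 bp. The share with a neighbour within 100 kb, 22.7%, was 5.88% and 0.0% with at least 7 and 8 reads, 12.1% with repeat calls merged, 14.4% for a neighbour within 10 kb and 53.6% within 500 kb. The 22.7%, 14.4% and 53.6% count the 6 pairs of repeat calls as neighbours. Of the pairs of distinct loci, only 1 lay within 10 kb. The reads difference turned from -0.2 to 0.25 with at least 7 reads, and ran from -0.5 to 0.25 when a library was left out. The cause was not tested. The length difference, -84.5 bp, kept its sign in all alternatives run. It was -262.2 bp with at least 7 reads and -11.5 bp with at least 8, which leave 4 and 3 libraries, and ran from -107.7 to -40.7 bp without 1 single plant. The gene difference, 17.7 points, stayed above 0 in all alternatives run and ran from 6.76 to 23.2 points without 1 library. No alternative moved a test across the 5% level, but with 3 to 5 libraries none of these tests can reach it. No paired analysis was possible because the groups share no replicate numbers, which leaves no samples to pair across groups. The sign-flip tests pair kinds of call within a library. The 2 to 4 calls of each single plant limit every comparison with the pool.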
